A study of Drosophila melanogaster with 66 samples.

Results

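The vacuolar ATPase is a proton pump built from subunits that most animals encode in small gene families. Its cytosolic part, V1, hydrolyses ATP through the A and B subunits, and its membrane part, V0, carries protons through a ring of c subunits against the large a subunit. The pump acidifies lysosomes and endosomes and, in insects, energises ion transport across the plasma membrane of epithelia such as the Malpighian tubules, the fly's excretory organ. The genes described here are those whose probe set was paired with a single gene symbol beginning with Vha, a choice made by name and not by any measured value. The rule found 32 probe sets of 31 genes, out of 11982 genes with a symbol on the array, and each gene was read from its probe set with the highest mean. Only Vha16-1 had a second one. RefSeq's gene table lists 33 Vha genes; Vha68-1 and Vha68-2, which encode A subunits, have no probe set that names them alone and were not analysed here. The 31 genes cover 14 kinds of subunit, 6 of them through 1 gene and 8 through several genes.

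Whole adult Drosophila melanogaster of both sexes were profiled on 66 Affymetrix arrays in 20 groups, 10 in each sex, each array measuring pooled RNA of 80 to 90 flies raised at 25 °C. All flies had the w1118 background. The founders (F0 test) carried the insulin-producing-cell driver ilp3-GAL4 (dilp3) over the balancer Ser-GFP (ser), and the cell-death construct UAS-rpr (rpr) over the balancer CyO-YFP (cyo). Crossing founder males to w1118 females gave F1 flies of the genotypes rpr/+; dilp3/+ (both constructs), rpr/+; ser/+ (cell-death construct alone), cyo/+; dilp3/+ (driver alone) and cyo/+; ser/+ (balancers alone). F2 and F3 test flies descend from the cell-death-construct males through balancer-free offspring and are labelled w1118 without constructs, as are the F1, F2 and F3 controls. The design text calls the profiled w1118 strain the F0 control, while the arrays carry the label F1 control, which is used here. Founders and F1 test flies are both set against the F1 control, so these comparisons share control arrays, and that control lacks the constructs and balancers. Groups held 3 arrays, or 4 in F2 males and in both sexes of F3. Adult age was not given in the sources used here.

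Values are log2 expression levels after GCRMA, the array normalization the submitters' notes name, in which 1 unit is a doubling. The scale has a floor: the lowest value on any array was 2.23, and a probe set at or below the 40th percentile of its sex (2.51 in females, 2.63 in males) is called near the floor, so that a fold against it is a lower bound. Array medians ranged from 3.25 to 4.50. Differences come from limma, and a gene is called where its p-value, adjusted by Benjamini-Hochberg across every entry tested, is under 0.05. F2 and F3 arrays form a separate set from F0 and F1 arrays, and groups are compared only within a set. The fits hold both sets, so arrays of each set enter the spread and the batch term of the other's comparisons. Equal batch labels were treated as 1 batch across the sets, which the sources used here do not state. Ranges over all arrays of a sex span both sets. For the ablated cells, their insulin-like peptide genes Ilp2 and Ilp5 were read in the founder comparisons only, and neither was called. Ilp2 differed by -0.30 ± 0.28 (SE) in founder females (limma adjusted p = 0.844) and by -0.18 ± 0.39 in founder males (0.926). Ilp5 differed by -0.33 ± 0.32 (0.846) and 0.080 ± 0.155 (0.91). Loss of the cells was not tested further.

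Some arrays stood apart from their groups. The mean level of 15 ovary markers was 4.43 in the F2 control female array numbered 2 and 6.27 in the F2 test female array with that number, against 11.08 to 11.15 in the other 4 F2 female arrays. One F2 control male array, numbered 3, had an ovary mean of 8.15, while every other male array lay between 3.53 and 4.10. The female F3 and F2 arrays numbered 3 were almost the same, with r = 0.9993 over all entries for both the test pair and the control pair, where arrays of 1 group correlated at 0.906 to 0.997. The F2 sex calls that changed without these arrays are given beside the genes, for 3 omissions: the F2 female arrays numbered 2, the F2 male arrays numbered 3, and all F2 and F3 arrays numbered 3. The last left 8 of the 13 calls in F2 controls and 8 of 13 in F2 test flies. Markers otherwise followed the labelled sexes, with mean levels of 18 testis markers between 2.68 and 3.65 in females and between 9.06 and 9.96 in males.

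Several Vha paralogs, among them Vha68-3, Vha100-3 and VhaM9.7-d, were near or little above the floor in females and higher in males. Most of the strongly detected subunits differed little or were not called. VhaAC45RP, Vha36-3 and VhaM9.7-a were also higher in males in some or all groups but were detected in both sexes, and VhaM9.7-c was higher in females. In F1 controls, 13 of the 31 genes differed between the sexes, which is 41.9%, against 52.0% of all 13281 entries tested. Of these, 10 were higher in males (background 21.3%) and 3 in females (background 30.7%), and 4 were higher in males by over 3 log2 units (background 8.71%). In the same flies the arrays of the sexes did not overlap for 19 Vha genes (61.3%, background 56.6%). Founders gave 14 calls (background 44.1%), and the other F1 genotypes gave 15 with both constructs (46.4%), 13 with the cell-death construct alone (51.6%), 15 with the driver alone (55.2%) and 11 with balancers alone (46.8%). F2 controls and F2 test flies gave 13 each (52.5% and 54.0%), and F3 controls and F3 test flies 19 each (62.4% and 64.2%). In every group the share of Vha genes called was near or under that of all entries. Higher in males in all 10 groups were 6 genes, Vha68-3, Vha36-2, Vha14-2, Vha100-3, VhaM9.7-d and VhaAC45RP (19.4%, background 12.4%). Vha13 and VhaM9.7-c were higher in females in all 10 groups (6.45%, background 20.0%). Vha44, Vha26, VhaSFD, Vha100-1, VhaM9.7-b and VhaAC45 were called in no group (19.4%, background 17.0%), which does not show that their levels were equal. With quantile normalization across arrays the split moved from 110 male-higher and 35 female-higher calls over the 10 groups to 93 and 71.

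Higher in males in 5 or more groups were 11 of the 31 genes (35.5%, background 21.2%). One of them, Vha16-5, entered the test through male arrays alone. The 11 include Vha68-3 and at least 1 gene of each of the 8 subunit kinds read from several genes, which hold 25 of the 31 genes. They lie on all major arms, 5 of them on 3R, which also holds 7 of the other Vha genes. In whole-fly RNA, fewer cells of a type and less RNA per cell cannot be told apart. The sexes also differed in tissue markers. In F1 controls, 15 of 18 testis markers were higher in males, with summed levels of 7.45 to 7.96 (log2) in females and 15.35 to 16.13 in males, and the testis gene Mst84Db was near the floor in 30 of 32 female arrays. All 9 accessory gland markers were higher in males, 13 of 15 ovary markers were higher in females, and 8 of 12 Malpighian tubule markers were higher in males with 1 lower. Their part in the sex differences of the Vha genes was not tested.

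**Figure D1:**
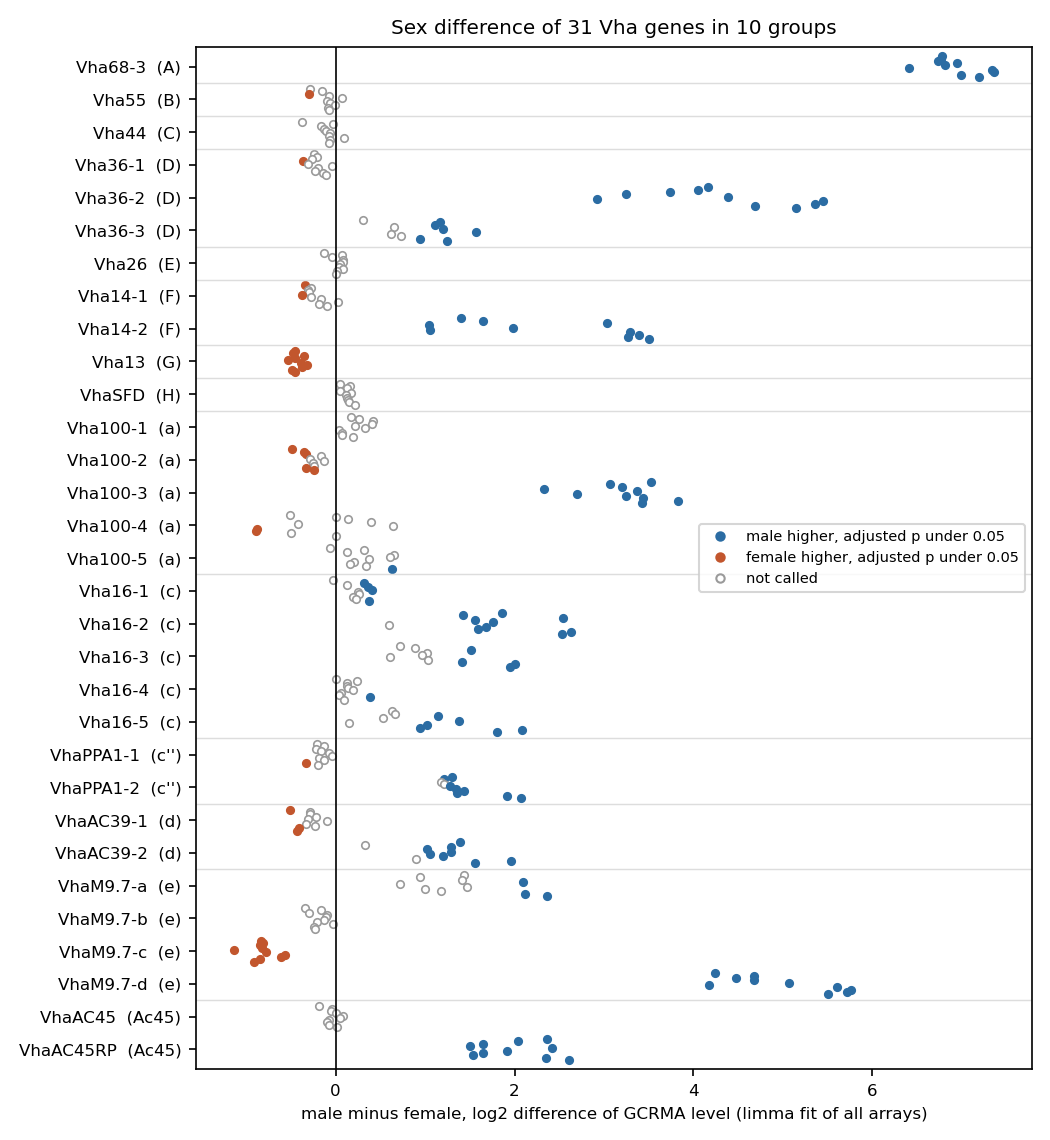
Male minus female log2 difference (x axis, GCRMA level, limma fit of all arrays) of each of 31 Vha genes (y axis, subunit in brackets), with 1 point per group for 10 groups. Filled points passed an adjusted p under 0.05, blue where males and orange where females were higher. Vha68-3 lies between 6.41 and 7.36 in every group, while Vha44, Vha26 and VhaAC45 lie around 0.

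Vha68-3 encodes an A subunit, the ATP-hydrolysing part of V1, and showed the largest sex difference among the Vha genes. In F1 controls its level was 2.26, 2.24 and 2.70 in the 3 female arrays and 8.85, 8.85 and 9.88 in the 3 male arrays. The sexes did not overlap in any group. The difference was 6.77 ± 0.23 (SE, limma adjusted p = 1.45e-29), and against the floor males were at least 98.4-fold higher. Over the 10 groups the bound ran from at least 75.1-fold, in the F1 flies with balancers alone, to at least 151-fold in F2 controls. Vha68-3 sits directly beside Vha68-2 on arm 2L and 1 protein-coding gene away from Vha68-1 in RefSeq's order.

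The B and C subunits were read from 1 gene each. Vha55, the B subunit that shares the catalytic sites with A, stood at 12.23, 12.44 and 12.38 in F1 control females and 12.19, 12.28 and 12.17 in males. The arrays of the sexes overlapped in every group, and it was called only in the F1 flies with both constructs, where females were higher by 0.30 ± 0.12 (male minus female -0.30, adjusted p = 0.043). Vha44, the C subunit that clamps V1 onto V0, overlapped between the sexes in all 10 groups, with differences from -0.38 to 0.09 and none called.

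The D subunit, part of the central rotor, was read from 3 genes that behaved differently. Vha36-1 was at 11.29, 11.37 and 11.25 in F1 control females and at 11.20, 11.11 and 11.06 in males. Females lay above males there without a call (-0.21 ± 0.14, adjusted p = 0.205), and the only call was in the F1 flies with the cell-death construct alone (-0.37 ± 0.14, adjusted p = 0.0269). Vha36-2 reached 6.67, 6.64 and 8.01 in F1 control males but 3.16, 3.19 and 2.86 in females. The sexes did not overlap in any group. Its difference was 4.05 ± 0.41 (adjusted p = 6.2e-12) in F1 controls and ran from 2.92 to 5.45 over the groups. Among F0 and F1 females the mean level of Vha36-2 ran from 2.92 ± 0.17 (SD, n = 3) in founders to 3.95 ± 0.70 in F1 females with balancers alone. Vha36-3, on the X chromosome, was present in both sexes, at 4.68, 5.47 and 4.20 in F1 control females and 6.33, 6.23 and 5.58 in males. Males were higher by 1.17 ± 0.45 (adjusted p = 0.0279), one of 6 groups in which the gene was called. The sexes overlapped in 7 of 10 groups. In F2 test flies it was called without the female arrays numbered 2 (1.16 ± 0.47, adjusted p = 0.0306, against 0.74 ± 0.43 and 0.149 with them).

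The E and F subunits belong to the stator and the rotor of V1. Vha26, the single E gene, lay between 13.10 and 13.70 in all female arrays and differed between the sexes by -0.13 to 0.09, with no call. Vha14-1, an F subunit, was at 11.41, 11.46 and 11.40 in F1 control females and 11.21, 11.12 and 11.15 in males. The arrays did not overlap there, but the difference of -0.28 ± 0.14 was not called (adjusted p = 0.0895), and 2 other groups gave calls towards females. Its paralog Vha14-2 was at 3.27, 4.36 and 5.74 in F1 control males and 2.90, 2.68 and 2.92 in females. The male arrays spread widely, yet all lay above the female ones, and the difference of 1.64 ± 0.38 passed (adjusted p = 0.000311). In F3 males Vha14-2 was at 5.89 ± 0.29 in controls and 6.01 ± 0.26 in test flies (SD, n = 4 each), with sex differences of 3.26 ± 0.34 and 3.50 ± 0.34.

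The G subunit Vha13, a stator component, ran the other way. Its F1 control arrays read 12.78, 12.71 and 12.74 in females and 12.38, 12.11 and 12.31 in males. Females were higher in each of the 10 groups without overlap, with male minus female differences from -0.53 to -0.31, at most 1.42-fold. In F1 controls the difference was -0.48 ± 0.10 (male minus female, adjusted p = 0.000107). VhaSFD, the H subunit that regulates coupling of V1 and V0, overlapped between the sexes in all groups and was not called, with differences from 0.05 to 0.21. Without the F2 female arrays numbered 2 it was called higher in males, by 0.44 ± 0.14 in F2 controls (adjusted p = 0.00489) and by 0.42 ± 0.14 in F2 test flies (0.00733).

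**Figure D2:**
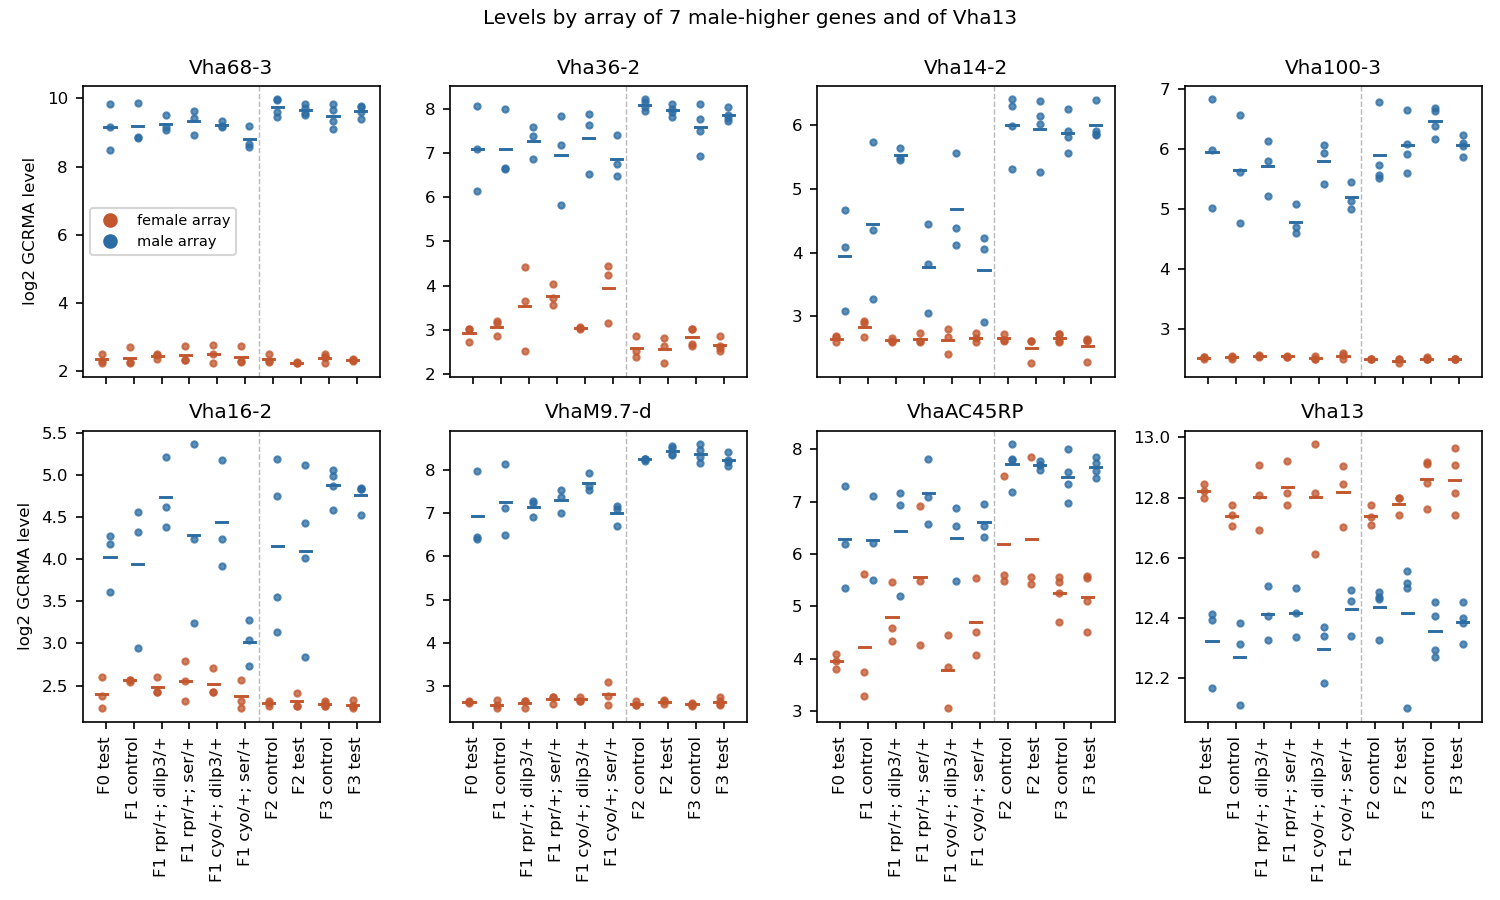
Log2 GCRMA level (y axis) of 7 male-higher genes and of Vha13 in every array (points) of 10 groups (x axis), females orange and males blue, with group means as bars and separate scales per panel. The dashed line parts the F0 and F1 arrays from the F2 and F3 arrays. The sexes do not overlap in any group for Vha68-3, Vha36-2, Vha14-2, Vha100-3, Vha16-2, VhaM9.7-d and Vha13, and they overlap for VhaAC45RP in 5 of 10 groups.

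The a subunit, which spans the membrane beside the c ring and directs the pump to a compartment, had 5 genes. Vha100-1, required at neuronal synapses, was called in no group, with differences from 0.03 to 0.42 towards males. Vha100-2 was at 10.50, 10.31 and 10.37 in F1 control females and 9.94, 10.20 and 10.04 in males. Females were higher there without overlap (-0.35 ± 0.12, adjusted p = 0.0113). The gene was called towards females in 5 of 10 groups, with differences from -0.49 to -0.13 over all 10. Vha100-3 was near or little above the floor in females, where its arrays lay between 2.42 and 2.59, around the filter value of 2.51. In F1 control males it read 4.76, 5.62 and 6.56, above the female arrays of that group, and the difference was 3.07 ± 0.27 (adjusted p = 1.85e-13), at least 8.7-fold. Male levels within the F0 and F1 set were lowest in the F1 males with the cell-death construct alone, at 4.60, 5.07 and 4.69. These overlapped the control males, and the difference of -0.86 ± 0.33 was not called (adjusted p = 0.41).

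Vha100-4 and Vha100-5 did not fall on one side. Vha100-4, which lies next to Vha100-2 on 3R, had sex differences from -0.89 to 0.64 and was called only in F2, where females were higher by 0.88 ± 0.35 in controls (male minus female -0.88, adjusted p = 0.0336) and by 0.89 ± 0.35 in test flies (-0.89, 0.0306). Its F2 control females read 5.16, 6.61 and 5.61, the highest being the array numbered 2 with low ovary markers. Without the F2 female arrays of that number the differences were -0.43 ± 0.37 (0.348) and -0.42 ± 0.37 (0.362), and without the F2 male arrays numbered 3 they were also not called (0.0948 and 0.0824). The same held without all arrays numbered 3 (0.157 and 0.12). Vha100-5 was called only in F3 test flies, at 7.37, 7.74, 7.85 and 7.28 in females and 8.27, 8.58, 8.26 and 8.53 in males. The sexes did not overlap there, and the difference was 0.64 ± 0.28 (adjusted p = 0.0469).

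The c subunit forms the proton-carrying ring of V0 and was read from 5 genes. Vha16-1 was at 13.34, 13.68 and 13.26 in F1 control females and 13.75, 13.83 and 13.71 in males. Males were higher there without overlap, by 0.32 ± 0.14 (adjusted p = 0.0449), one of 4 groups called. In F2 it was called only without the female arrays numbered 2, by 0.47 ± 0.13 in controls (adjusted p = 0.0014) and 0.37 ± 0.13 in test flies (0.0122). The gene's second probe set did not show this: its male mean was above the female mean in 2 of 10 groups, with differences from -0.28 to 0.13, against 10 of 10 and 0.07 to 0.42 for the probe set used. The 2 probe sets therefore disagree on the direction.

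The other c genes were near the floor in most or all female arrays. Vha16-2 read 2.57, 2.54 and 2.57 in F1 control females and 4.56, 2.94 and 4.32 in males, a difference of 1.43 ± 0.38 (adjusted p = 0.00158). It was called in 9 groups and failed in the F1 flies with balancers alone, where the male arrays stood at 3.28, 2.74 and 3.04 (0.60 ± 0.38, adjusted p = 0.202). Vha16-3, its direct neighbour on 3L, was called in 4 groups, with F3 control males at 4.83, 4.57, 4.02 and 4.28 and the 4 females between 2.23 and 2.38. That difference was 2.01 ± 0.42 (adjusted p = 5.35e-05), at least 3.78-fold. In F2 controls it lay at the threshold, with an adjusted p of 0.0505, and of 0.0372 without the male arrays numbered 3. Vha16-5 stayed between 2.23 and 2.30 in all 32 female arrays, none of them over the filter value, against 22 of 34 male arrays. It therefore entered the sex test through males alone, and its calls in 6 groups, from at least 1.8-fold to at least 3.82-fold, are a description. Both F2 calls were lost without the female arrays numbered 2 (adjusted p = 0.0587 and 0.0806) and without all arrays numbered 3 (0.0716 and 0.109). In F2 control males it read 3.03, 2.52, 3.08 and 5.13, so that 1 array carried most of the group's spread. Vha16-4 was barely measured: no female array passed the filter value, no male array exceeded 2.90, and 8 of 34 male arrays were over their filter value. It too entered the sex test through males alone, and its bound of at least 1.17-fold in F3 controls is a description.

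The c'' subunit, a diverged member of the ring, had 2 genes that RefSeq places 1 protein-coding gene apart on 3R. VhaPPA1-1 was at 11.96, 12.19 and 12.18 in F1 control females and 11.93, 12.10 and 11.97 in males. The arrays overlapped, and 1 of 10 groups gave a call, F3 controls, with females higher (-0.33 ± 0.13, adjusted p = 0.0224). VhaPPA1-2 read 2.90, 2.36 and 2.97 in the same females and 4.53, 3.08 and 4.26 in males. The difference of 1.21 ± 0.53 lay at the threshold (adjusted p = 0.0496, at least 2.24-fold), and 8 of 10 groups were called. Of the F2 calls, that in test flies was lost without the female arrays numbered 2 (adjusted p = 0.0503), and both were lost without all arrays numbered 3 (0.0737 in controls and 0.114 in test flies).

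The d subunit couples the rotor to the ring. VhaAC39-1 had differences from -0.51 to -0.10, towards females in all 10 groups, and was called in 3. VhaAC39-2 was higher in males in 8 called groups, but not in F1 controls, where it read 3.35, 2.88 and 3.14 in males and 2.69, 2.64 and 2.76 in females (0.33 ± 0.42, adjusted p = 0.563). In F3 controls the 4 males stood at 4.03, 5.13, 4.41 and 4.13 and the 4 females between 2.23 and 2.28. The difference there was 1.96 ± 0.37 (adjusted p = 1.11e-05), at least 3.79-fold. In F2 test flies it was called only without the male arrays numbered 3 (adjusted p = 0.0189, against 0.052 with them).

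The small e subunit had 4 genes and showed every pattern. VhaM9.7-b was called in no group, with differences from -0.34 to -0.03. VhaM9.7-c read 8.35, 8.41 and 8.53 in F1 control females and 7.84, 7.85 and 7.12 in males. Females were higher without overlap by 0.81 ± 0.23 (male minus female -0.81, adjusted p = 0.0027), and the differences of all 10 groups, each called, ran from -1.14 to -0.56. In F2 the female arrays numbered 2 read 7.45 and 7.73, below the 8.35 to 8.46 of the others, and without them the differences grew from -0.56 to -0.94 in controls and from -0.61 to -0.91 in test flies. Without all arrays numbered 3 they were -0.46 ± 0.27 and -0.55 ± 0.27 and were not called (adjusted p = 0.177 and 0.0964). VhaM9.7-d was near 2.6 in females, at 2.57, 2.68 and 2.49 in F1 controls, and at 7.12, 6.50 and 8.12 in the males. The sexes did not overlap in any group, and the difference was 4.68 ± 0.23 (adjusted p = 9.27e-23), at least 25.4-fold. VhaM9.7-a was variable in both sexes, at 7.66, 5.41 and 5.03 in F1 control males and 5.08, 5.40 and 4.80 in females. It was called in 3 groups, and in F2 only without the female arrays numbered 2, where the differences moved from 1.00 ± 0.62 to 2.12 ± 0.58 in controls (adjusted p = 0.181 and 0.0015) and from 1.18 ± 0.62 to 2.26 ± 0.58 in test flies (0.104 and 0.000735).

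Ac45 is an accessory protein that helps sort and regulate the pump. VhaAC45 was at 12.13, 12.26 and 12.03 in F1 control females and 12.18, 12.19 and 12.03 in males. The sexes overlapped in all 10 groups with no call. The related VhaAC45RP read 3.75, 5.62 and 3.29 in those females and 7.10, 6.22 and 5.49 in males, a difference of 2.04 ± 0.60 (adjusted p = 0.00367). It was called in all 10 groups, yet the arrays overlapped in 5. The F2 female arrays numbered 2 read 7.48 and 7.85, above the other F2 female arrays. Without these 2 arrays the F2 differences rose from 1.65 ± 0.56 to 2.51 ± 0.55 in controls and from 1.54 ± 0.56 to 2.54 ± 0.55 in test flies. Without all arrays numbered 3 they were 1.55 ± 0.71 and 1.15 ± 0.71, and both calls were lost (adjusted p = 0.0802 and 0.205).

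Batches labelled in the data were compared where they held both sexes of a group, which gave 14 combinations of batch and group, most with a single array of at least 1 sex. All 14 within-batch differences were above 0 for Vha68-3, Vha36-2, Vha36-3, Vha14-2, Vha100-3, Vha16-2, Vha16-5, VhaPPA1-2, VhaAC39-2 and VhaM9.7-d, from 6.36 to 7.58 for Vha68-3 and from 3.72 to 5.87 for VhaM9.7-d. The lowest were 0.01 for Vha36-3 and Vha16-5 and 0.03 for VhaPPA1-2. For VhaAC45RP 12 of 14 were above 0. All 14 were below 0 for Vha13, from -0.55 to -0.23, and for Vha100-2, from -0.47 to -0.05. For VhaM9.7-c 13 of 14 were below 0. These genes were picked by the sex calls of the same arrays, so the signs are a description and no separate support.

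Within females, several broadly present subunits moved with the replicate number. The array numbered 2 was the highest of its group in all 10 female groups for Vha55, Vha16-1, VhaAC39-1 and VhaM9.7-b, which is 4 of the 29 Vha genes tested in females (13.8%, background 3.62% of 12809 entries). It was highest in 9 groups for Vha26, VhaSFD, VhaPPA1-1 and VhaAC45, and in 1 group for Vha13. VhaM9.7-b in F1 control females read 12.06, 12.51 and 12.13, and in F1 females with balancers alone 12.16, 12.69 and 12.13. In both groups the array numbered 2 stood clear of the other 2. The same arrays had the lowest mean of the 15 ovary markers and the highest mean of the 12 Malpighian tubule markers in 10 of 10 female groups. In F1 control females the ovary mean was 10.53, 8.89 and 11.20 and the tubule mean 6.38, 7.25 and 6.51. The part of these markers in the levels of the subunits was not tested.

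**Figure D3:**
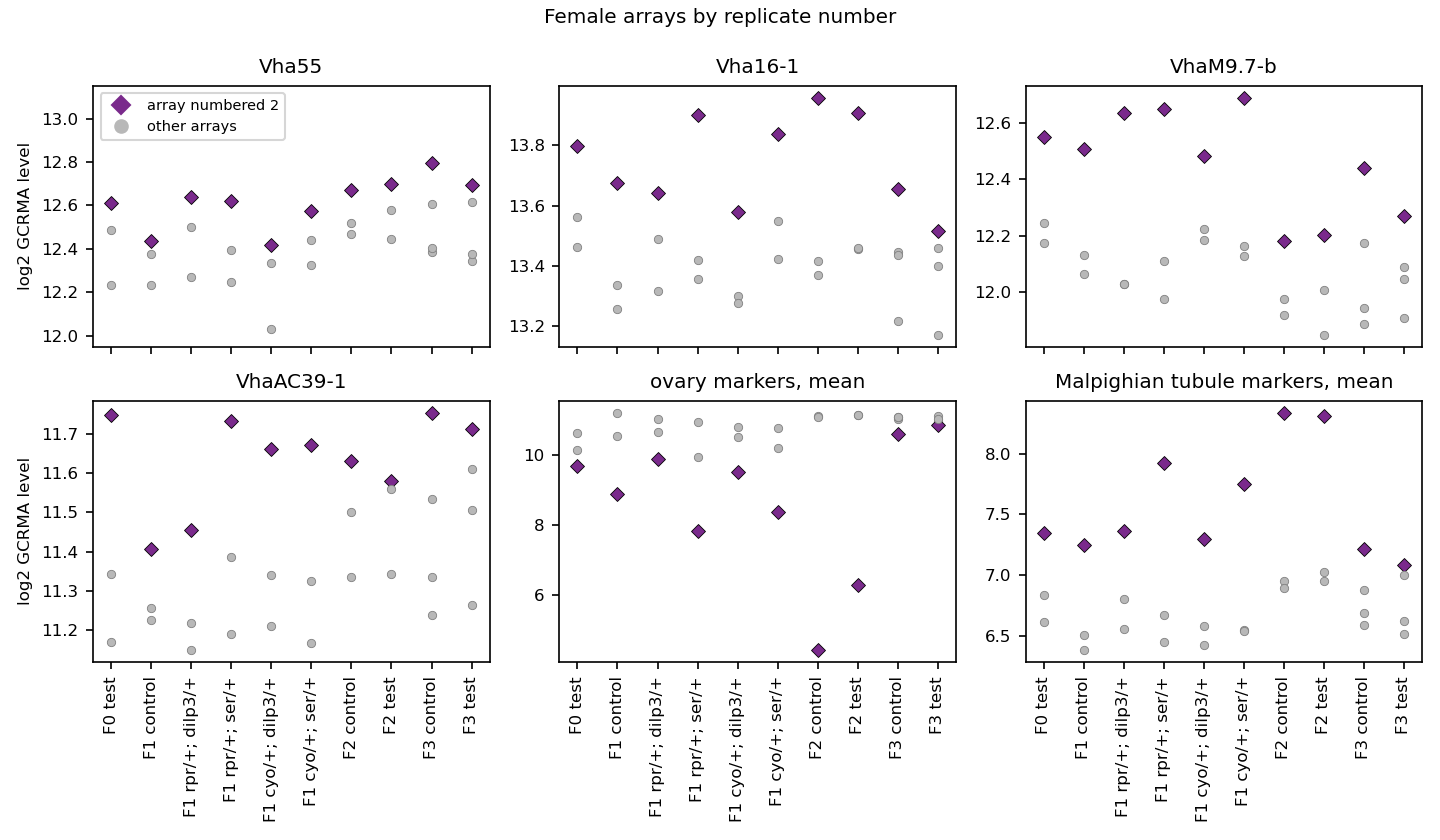
Log2 GCRMA level (y axis) of 4 Vha genes and mean level of the ovary and Malpighian tubule markers in each female array of 10 groups (x axis), each panel with its own scale. Diamonds are the arrays numbered 2, which are the highest of their group in all 10 groups for the 4 genes and the tubule markers and the lowest for the ovary markers.

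The comparisons with the controls ask whether ablation of the insulin-producing cells, the separate constructs, or descent from ablated founders go with altered subunit transcripts. In founders, 0 of 29 Vha genes tested in females and 0 of 31 in males were called by limma, against backgrounds of 0.828% and 3.43%. At an unadjusted p under 0.05 the counts were 0 in females (background 9.0%) and 2 in males (14.6%), Vha100-4 and Vha100-5. In founder males Vha100-5 was 0.42 ± 0.17 above the control, with an adjusted p of 0.226. The difference of Vha100-4 in the same males was -0.80 ± 0.34 (adjusted p = 0.238). The largest differences among tested Vha genes were -0.78 and 0.53 in females and -0.80 and 0.90 in males. VhaAC39-2 gave the last of these, and its difference of 0.90 ± 0.53 had an interval from -0.19 to 1.98. The test of whether the founder difference itself differed between the sexes called 0 of the 31 genes in limma (background 0.12%), with 0 at an unadjusted p under 0.05 (4.96%).

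F1 flies with both constructs gave 0 called Vha genes in females (background 0.117%) and 0 in males (0.22%), with 0 and 1 at an unadjusted p under 0.05 (4.52% and 5.5%). The 1 gene was Vha14-2 in males. It read 5.64, 5.46 and 5.49 in males with both constructs and 3.27, 4.36 and 5.74 in control males, so that the groups overlapped (1.14 ± 0.52, adjusted p = 0.873). Against the mean of the other 3 F1 genotypes Vha14-2 was 1.54 ± 0.44 higher in these males, with an adjusted p of 0.282, where limma called 0 Vha genes (background 0.0792%) and 2 had an unadjusted p under 0.05 (6.9%). With both sexes in 1 fit the same difference was 1.54 ± 0.32 and was called (adjusted p = 0.0286).

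With the cell-death construct alone, females gave 0 calls in limma (background 8.55%) with 4 genes at an unadjusted p under 0.05 (29.7%), and males 0 calls (background 0.484%) with 3 (7.85%). The genes in females were Vha100-5, Vha16-1, VhaM9.7-b and VhaAC45, and Vha100-5 was called when the control female array numbered 1 was left out (-1.46 ± 0.42, adjusted p = 0.0267). These values also follow the batch term, and no batch held both groups. The plain difference of Vha100-5 was 0.10 and that of Vha16-1 0.14, the opposite sign to the fitted -1.23 ± 0.41 and -0.40 ± 0.16. The fit called 7 of 15 ovary markers higher and 4 of 12 Malpighian tubule markers lower. Their plain group means went the other way, at 9.57 against 10.21 in control females for ovary and 7.01 against 6.71 for tubule markers. The part of these markers in the Vha values was not tested. Without the batch term the fit called 21 of all 12809 entries, against 1095 with it. The genes in males at an unadjusted p under 0.05 were Vha100-3, VhaM9.7-a and VhaAC45RP. VhaM9.7-a was 1.51 ± 0.56 higher in males with the cell-death construct alone than in control males (adjusted p = 0.406). With balancers alone there were 0 calls in both sexes (backgrounds 0.18% and 0.396%), with 1 gene at an unadjusted p under 0.05 in each (6.78% and 9.07%), Vha36-2 in females and Vha100-2 in males.

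Females with the driver alone gave the only calls against a control, 3 of 29 lower (10.3%, background 8.74% lower and 20.4% in either direction). They were Vha100-5 (-1.38 ± 0.41, limma adjusted p = 0.024), Vha16-1 (-0.58 ± 0.16, 0.0161) and VhaAC45 (-0.49 ± 0.14, 0.0226). These are differences after the batch term, and the arrays themselves did not differ that way. Vha16-1 read 13.30, 13.58 and 13.28 in driver-alone females and 13.34, 13.68 and 13.26 in control females. The plain differences of the means were -0.05, -0.04 and 0.00 for the 3 genes, and the arrays of the groups overlapped in each. The driver-alone females lay in batches 3 and 4 and the control females in batches 1 and 2, so no batch held both. The same fit called 10 of 15 ovary markers higher and 7 of 12 Malpighian tubule markers lower in the driver-alone females. Their plain group means were close, at 10.27 and 10.21 for ovary and 6.77 and 6.71 for tubule markers (driver-alone and control females). The part of these markers in the Vha differences was not tested. At an unadjusted p under 0.05 there were 10 Vha genes (background 37.8%). Of all 12809 entries, the fit called 2614. That number was 15 without the batch term, 19 with the replicate number as a block and 0 in F0 and F1 arrays alone. Without the batch term, or with the replicate number as a block, 0 Vha genes were called, and Vha16-1 then differed by -0.04 ± 0.19 and -0.23 ± 0.19 (adjusted p = 1.0 and 0.651). Leaving out the control female array numbered 2 also left 0 calls, and leaving out the one numbered 1 gave 5, with Vha55 and VhaM9.7-b added. Males with the driver alone gave 0 calls (background 0.282%) and 0 at an unadjusted p under 0.05 (5.98%).

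The same arrays enter the comparison of females with both constructs against the other 3 F1 genotypes. There 2 of 29 Vha genes were called, both higher (6.9%, background 5.29% higher and 9.67% in either direction). Vha100-5 was higher by 1.27 ± 0.33 (adjusted p = 0.0244) and Vha16-1 by 0.42 ± 0.13 (0.0418). At an unadjusted p under 0.05 there were 6 (background 30.2%). Both calls were lost without the batch term, where Vha100-5 differed by 0.18 ± 0.37 and Vha16-1 by -0.03 ± 0.15. The fit also called 7 of 12 Malpighian tubule markers higher and 4 of 15 ovary markers lower. The plain ovary mean was 10.52 with both constructs and 9.57, 10.27 and 9.77 in the other genotypes (cell-death construct, driver and balancers alone). The tubule means were 6.90 against 7.01, 6.77 and 6.95. The part of these markers was not tested. Of all 12809 entries the fit called 1239, and 3 without the batch term.

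No Vha gene was called in the descendants without constructs. In F2, 0 of 29 in females and 0 of 31 in males passed, and in F3 likewise, against a background of 0.0% in each of these 4 comparisons. At an unadjusted p under 0.05 there were 0 genes in F2 females (background 0.156%), F3 females (0.211%) and F2 males (0.854%), and 1 in F3 males (0.475%), Vha16-4. The differences of the tested genes lay between -0.16 and 0.26 in F2 females, -0.20 and 0.21 in F3 females, -0.30 and 0.36 in F2 males and -0.41 and 0.43 in F3 males. For Vha68-3, F2 test males read 9.51, 9.82, 9.58 and 9.71 and F2 control males 9.46, 9.97, 9.59 and 9.95, and the groups overlapped. The interval of that difference was -0.54 to 0.37. The counts were also 0 without the F2 female arrays numbered 2, without the F2 male arrays numbered 3, and without all arrays of F2 and F3 that carry number 3. Same-numbered test and control arrays deviated together, by r of 0.924 to 0.97 in F2 females and 0.447 to 0.777 in F3 females. In males r was 0.274 to 0.886 in F2 and 0.334 to 0.492 in F3. The fit holds no term for the number, so this shared variation stays in its errors. With the number as a block the counts were again 0, for Vha genes and for all entries.

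**Figure D4:**
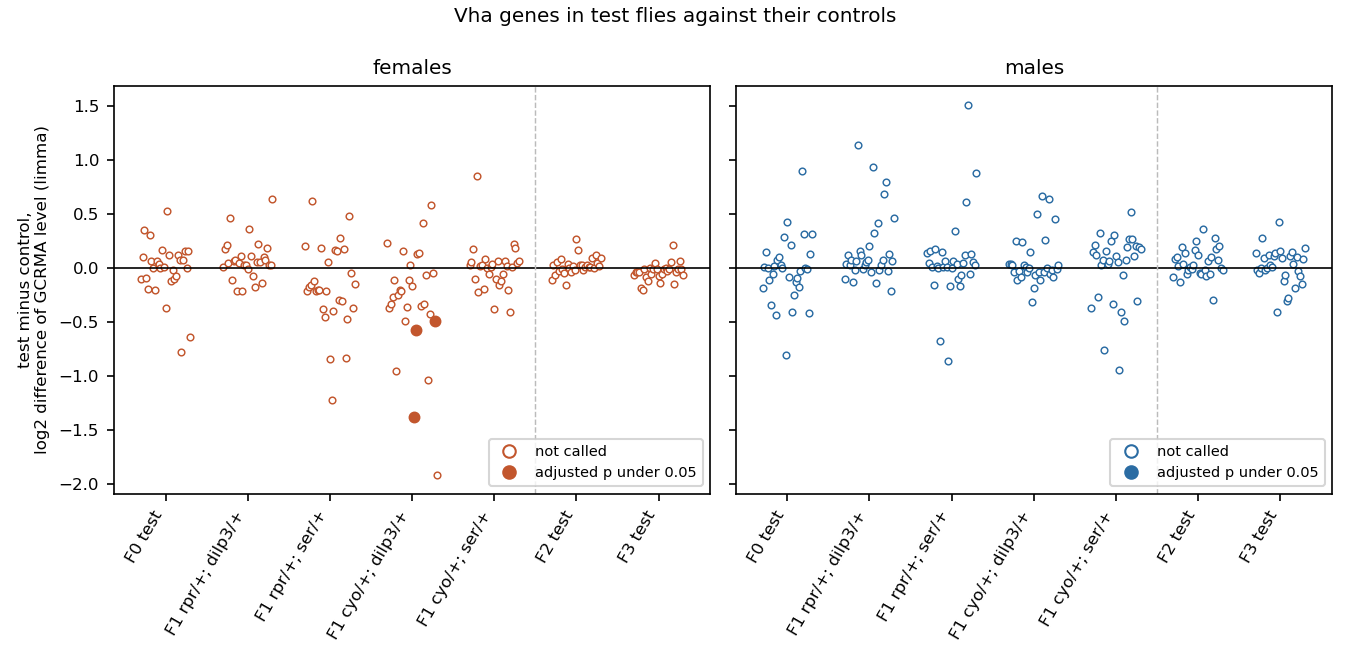
Log2 difference between test flies and their control (y axis, limma) of each Vha gene tested, 1 point per gene, in 7 comparisons per sex (x axis), females left and males right. Filled points passed an adjusted p under 0.05, which 3 genes did in F1 females with the driver alone. The dashed line parts comparisons with the F1 control from those in F2 and F3.

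Genes that assemble the pump, or work at the compartments it acidifies, were read from lists. Of 6 assembly and regulatory genes, 5 were measured. In F1 controls 1 of these was called between the sexes (background 52.0%), CG5969, with a male minus female difference of -1.32 ± 0.23 (adjusted p = 3.47e-06). Mitf, the transcription factor known to drive pump and lysosome genes in flies, rose in founder males by 1.14 ± 0.23 (adjusted p = 0.00407). Mitf was the only assembly gene called in that comparison, in which 3.43% of all entries and no Vha gene were called. Of 23 measured lysosome genes, 6 were higher and 3 lower in F1 control males than in females, with a median of 0.29 against -0.06 over all entries. Of all entries, 21.3% were higher and 30.7% lower in these males, so the lysosome counts lie near or under the background. The hexosaminidase Hexo2 was higher in males by 1.02 ± 0.21 (adjusted p = 4.44e-05). The adaptor subunit AP-1sigma and the membrane-tethering subunit Vps16A were lower in males (-2.16 ± 0.32 and -1.54 ± 0.41, adjusted p = 1.87e-07 and 0.00145). In founder males 2 of the 23 lysosome genes fell, where 251 of all 11357 entries tested were called lower. They were Hexo2, by 0.67 ± 0.16 (log2, adjusted p = 0.021), and the protease cathD, by 0.60 ± 0.16 (0.0379).

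The TORC1 list holds the nutrient-sensing kinase complex and its regulators on the lysosome surface, with which the pump interacts. Of 13 measured, 0 were higher and 7 lower in F1 control males than in females, with a median of -0.54 against -0.06 over all entries and beside the same 30.7% of all entries lower and 21.3% higher. The smallest p-values were those of the amino acid transporter slif (-3.33 ± 0.43), of Nprl2 (-1.80 ± 0.25), part of a TORC1-inhibiting complex, and of Lst8 (-2.13 ± 0.40), a partner of the kinase. Lamtor1, which anchors the Ragulator complex to the lysosome, fell in founders of both sexes, by 1.22 ± 0.16 in females (log2, adjusted p = 7.55e-05) and by 0.75 ± 0.19 in males (0.0228). It was the only called gene of this list in the founder comparisons, of 13 tested in females and 12 in males. Of all entries, 0.828% were called in founder females and 3.43% in founder males.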

How the data were processed

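The authors' deposited table holds log2 GCRMA values of 18952 probe sets, per the submitters' processing notes, which give no GCRMA version and name limma 3.46.0 without a role. Without the 183 control probe sets, 13647 had 1 gene symbol, and the probe set of highest mean per gene left 17104 entries. Entries above a sex's 40th percentile in at least 3 arrays were tested: 12809 in females, 11357 in males and 13281 in both. In limma 3.58.1 (R 4.3.3), each sex had 1 model of all its groups plus a term for the batch label (4 batches), and sex differences came from 1 model of all 66 arrays. Errors are SEs of the fit unless marked SD, and intervals are the fit's 95% confidence intervals. The design text speaks of biological replicates.

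Members, gene lists and tests were chosen with earlier results of these data known. Named genes are all 31 members and, of each list and comparison, at most the 3 called genes of smallest p. Same-numbered arrays deviated together by r over 0.1 in every pair in most comparisons (0.32 to 0.684 for driver-alone females against controls, 0.924 to 0.97 in F2 females). The reported fits hold no term for this number, which entered only as a block in an alternative fit. The deviation was not shared in every pair for founder males or males with both constructs, nor between the sexes in 4 groups. The fits were tested on simulated data with independent errors and batch shifts common to all genes. Those data held no deviation shared by array number, so they do not test for it. Array number limits the precision. Sequences were not analysed here.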

Additional observations from a re-analysis of the deposited data

Results flagged for a closer look

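In groups of 4 arrays, 10 of 172 checks of a Vha gene in a group (5.81%) found 1 array far from the others relative to the group's range. Chance flags about 1 group in 20. Vha13, which varied little elsewhere, had 1 low F2 control male array at 12.33 (the next at 12.46) and 1 low F2 test male array at 12.10 (the next at 12.50), both numbered 4. In F2 control males Vha100-3 had 1 high array at 6.77, with the next at 5.72, and Vha100-5 had 1 at 8.74, with the next at 8.16. VhaSFD had 1 high array in F2 test males, at 11.91 against 11.67. In F3 test males Vha14-2 had 1 high array at 6.39 and Vha16-2 had 1 low array at 4.52. The highest F3 control female array of Vha100-3 was 2.53 while the other 3 read 2.49, and Vha14-2 had 1 low F3 test female array at 2.28. Vha16-4 had 1 low F3 control male array at 2.49. These last 3 lie at or close to the floor.

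VhaAC39-2 had differences of opposite sign in the sexes when F1 flies with both constructs were set against the F1 control, neither of them called. The difference of means was -0.14 in females and 0.70 in males, which differ by 0.84. The gene was over the female filter value of 2.51 in 21 of all 32 female arrays, so its female levels lie close to the floor. The difference between the sexes was not tested.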

How the results depend on the processing

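The analysis was repeated under 10 alternatives chosen with the design and 4 added after seeing the data (batches numbered separately in the 2 array sets, and the 3 ways of leaving out F2 and F3 arrays). Of 465 alternative counts of called Vha genes, 430 stayed within 1.5 times the reported count. Many of these were counts of 0 that stayed 0 in comparisons with a control. Of 2449 alternative values of 150 gene calls, 2106 kept the call and 4 changed sign. Vha68-3, Vha36-2, Vha100-3 and VhaM9.7-d kept their sex call in 164 of 164 alternatives each, Vha13 in 162 and VhaAC45RP in 140. Vha14-2 kept it in 149 of 164, Vha16-2 in 138 of 140 and VhaAC39-2 in 99 of 122. Fewer were kept for VhaPPA1-2 (77 of 126), Vha36-3 (63 of 96) and Vha16-5 (73 of 98). Of the calls towards females, VhaM9.7-c kept 149 of 164 and Vha100-2 55 of 81. Quantile normalization gave 93 male-higher and 71 female-higher sex calls in place of 110 and 35 (8 and 8 in F1 controls in place of 10 and 3), and moved the median sex difference of all entries in F1 controls from -0.06 to -0.13.

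With only the 2 compared groups and no batch term, sex calls numbered 9 in founders, 7 in F1 controls, 6 with the cell-death construct alone, 6 with balancers alone and 7 in F2 test flies. Leaving out the F2 and F3 arrays numbered 3 gave 8 in F2 controls and 8 in F2 test flies. For flies with both constructs, leaving out 1 array gave 8 to 14 sex calls, 8 without the male array numbered 3. For the same omission in the other groups the sex counts ran from 11 to 15 in founders, 9 to 12 in F1 controls, 9 to 16 in F2 controls and 10 to 15 in F2 test flies.

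Driver-alone females had 0 calls without the batch term, with batches numbered separately, with both sexes in 1 fit, with the compared groups only and within 1 array set, and 0 to 5 with 1 array left out. For females with both constructs against the other 3 F1 genotypes the count was 0 under the same 5 settings, 1 with the mean of probe sets and 0 to 3 with 1 array left out. For females with the cell-death construct alone it was 1 with no filter and 0 to 2 with 1 array left out. Males with both constructs against the others had 1 with both sexes in 1 fit. Without the batch term, alone or with only the compared groups, VhaAC45 in driver-alone females came to 0.0001 and Vha16-1 in females with both constructs against the others to -0.0344, each of opposite sign to the reported value. The cause of these changes was not tested.

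With the replicate number as a block, driver-alone females had 0 calls, females with both constructs against the other 3 F1 genotypes 0, founder males 1 (Vha100-4, -0.98 ± 0.30, adjusted p = 0.0473) and males with both constructs against the others 1 (Vha14-2, 1.55 ± 0.27, 0.0154). In founder males the numbers do not pair the arrays by the check above, and in the comparisons with the other 3 genotypes pairing was not checked. The block moved no sex count past 1.5 times, with 12 to 20 calls per group.

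Levels near the floor limit what can be said of Vha16-3, Vha16-4 and Vha16-5, and 3 or 4 arrays per group limit the precision of every difference.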
